A study of Homo sapiens with 6 samples.

Results

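The genes described here encode the enzymes that place and remove methyl groups on histones, together with the core subunits of their complexes. A fixed list of 54 genes was used, covering lysine methyltransferases, arginine methyltransferases (PRMTs), lysine demethylases, and the shared subunits of the COMPASS and Polycomb repressive complex 2 (PRC2) assemblies. Each was matched by its symbol in the array annotation, and 53 of the 54 were measured among 19775 genes in all. ASH1L, an H3K36 methyltransferase, had no probe set under its symbol alone in that annotation and was not analysed here. Where a gene had several probe sets, the brightest on average was used. Only 14 of the 53 had a single probe set.

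RNA came from K562, an established human line derived from chronic myeloid leukaemia that carries the BCR-ABL1 fusion. Cells on 3 arrays had received calactin, labelled 0.15 mM for 12 h, and cells on the other 3 were untreated for the same time; no vehicle is named for them. Calactin is a cardenolide, a plant steroid of a class that inhibits the sodium pump. The labels call the arrays of a group biological replicates, and all rest on this 1 line, so p-values measure the spread among these samples.

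Histone methylation marks differ in meaning with the residue. Methylation of histone H3 at lysine 4 (H3K4) marks promoters and enhancers, and that of lysine 36 and lysine 79 (H3K36, H3K79) marks transcribed gene bodies. Methylation of lysine 9 (H3K9) marks heterochromatin, that of lysine 27 (H3K27) marks Polycomb-silenced genes, and H4K20 methylation follows the cell cycle. Writers add the methyl group from S-adenosylmethionine, while erasers of the LSD and JmjC families oxidise it away. KMT2A, the gene broken in MLL leukaemias, belongs to the first class, and KDM1A, or LSD1, to the second.

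Median array signals were 31.2 to 32.1 intensity units with calactin and 33.1 to 34.4 without, so that every calactin array lay below every untreated one. All 7 measured K562 markers, among them GATA1, TAL1 and HBE1, lay above the median signal of all genes; 3 of them were lower (GATA1, LMO2, NFE2), 1 was higher (TAL1) and 3 were not called. Of the markers of other cells, 1 of 4 for T cells, 0 of 3 for B cells, 2 of 4 for fibroblasts and 3 of 4 for epithelium lay above it. The summed epithelial markers were 8733 to 9944 with calactin and 12200 to 14903 without, those for T cells, nearly all CD3D, were 1727 to 1929 and 2235 to 2633, and the sums for B cells and fibroblasts overlapped. The part of such genes in the results below was not tested.

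Upstream sequence is shown for the members with the largest called changes among those with 1 RefSeq start, 2 that fell (PRMT6, KDM1B) and 2 that rose (KMT2A, KDM6A). The 250 bases before the start come from RefSeq, GRCh38.p14, each on the plus strand, at chr1:107056424-107056673 for PRMT6, chr6:18155172-18155421 for KDM1B, chr11:118436242-118436491 for KMT2A and chrX:44872938-44873187 for KDM6A. Capitals mark every match, on either strand, to the motifs searched.
PRMT6: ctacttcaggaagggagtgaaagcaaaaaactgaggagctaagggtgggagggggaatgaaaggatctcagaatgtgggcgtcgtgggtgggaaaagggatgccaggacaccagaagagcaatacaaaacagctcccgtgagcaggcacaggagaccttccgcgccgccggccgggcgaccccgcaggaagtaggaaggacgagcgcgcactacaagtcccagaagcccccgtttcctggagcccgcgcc
KDM1B: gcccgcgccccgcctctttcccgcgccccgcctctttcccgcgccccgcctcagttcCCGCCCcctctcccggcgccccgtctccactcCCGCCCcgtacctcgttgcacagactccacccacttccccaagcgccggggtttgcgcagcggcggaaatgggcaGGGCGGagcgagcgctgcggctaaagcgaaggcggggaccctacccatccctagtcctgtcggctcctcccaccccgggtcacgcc
KMT2A: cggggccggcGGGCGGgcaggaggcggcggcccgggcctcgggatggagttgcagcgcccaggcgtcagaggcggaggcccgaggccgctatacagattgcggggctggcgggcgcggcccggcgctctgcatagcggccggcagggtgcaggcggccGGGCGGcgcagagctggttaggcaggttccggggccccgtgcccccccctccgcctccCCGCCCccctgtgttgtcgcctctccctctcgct
KDM6A: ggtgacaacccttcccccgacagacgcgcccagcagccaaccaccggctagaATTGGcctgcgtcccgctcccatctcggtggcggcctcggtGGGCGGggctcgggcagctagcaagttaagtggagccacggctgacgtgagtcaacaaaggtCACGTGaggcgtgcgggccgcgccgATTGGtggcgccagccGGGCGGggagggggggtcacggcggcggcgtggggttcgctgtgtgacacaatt
KMT2A and KDM1B each held 3 GC boxes, KDM6A held 2 GC boxes, 2 CCAAT boxes and 1 E-box, and PRMT6 held none of the letters searched. All 4 windows held more CpG, with 31 in KMT2A, 30 in KDM1B, 27 in KDM6A and 16 in PRMT6, than the median of 11 over all 35116 RefSeq windows of this length. Medians were 24 for windows of higher members, 22.5 for those of lower ones and 23.5 for those of members not called. PRMT6 lay below each of these. RefSeq windows were matched for 47 of the 53 members, 71 in all. The GC box, GGGCGG, was in 73.2% of them and in 42.6% of all windows, with 9 of 13 windows of higher members and 17 of 24 of lower ones. CCAAT was in 33.8% of member windows and 32% of all, and the E-box CACGTG in 14.1% and 6.34%. The EGR1 motif GCGGGGGCG was in 7.04% and 4.72%, the ETS motif CCGGAAG in 8.45% and 8.52%, AGATAA for GATA factors in 2.82% and 9.17%, and the CRE TGACGTCA in 2.82% and 1.65%. AAGATGGCG for YY1 was in 1.41% and 0.652%. The NRF1 motif and TTTNGCGC for E2F were in 0 of the 71 member windows, with shares of 1.03% and 1.51% over all. Both strands were searched for each, and matches to different motifs may overlap, as the EGR1 letters and a GC box do where a G follows.

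With calactin, 10 of the 53 members were higher, 18 were lower and 25 were not called (limma on log2(intensity + 16), Benjamini-Hochberg over all genes, adjusted p below 0.05). That is 18.9% higher against 4.93% of all genes, and 34% lower against 16.5%. Members were bright, with 51 of 53 above the median signal of all genes. Among the 9887 genes above it, 9.1% were called higher and 29.3% lower, so the share of lower members was close to that background. The median change of the members was -0.01 on the log2 scale and that of all genes -0.06. Changes reached 2-fold for 5 of the called members, KMT2A, MEN1, KDM1B, KDM2B and PRMT6, and a fold change here is on the log2(intensity + 16) scale, which understates changes of dim genes. The groups did not overlap for 32 members (34.7% of all genes). Calactin arrays were the higher ones in 13 of these (10.3% of all genes) and the lower ones in 19 (24.4%). None of these shares was computed for genes above the median signal, so nothing is read from the counts without overlap. A lower signal may stand for fewer cells holding a transcript or less of it per cell, which cannot be told apart in pooled RNA.

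Scaling between arrays moved these counts. Lower calls were 64.3% of the member calls as deposited, 48% under quantile normalization, 53.3% with scaling to the hybridisation spikes and 12.9% with poly-A spike scaling, which was fitted with the replicate number as a block. Over all genes the share was 77% as deposited, 59.1% under quantile normalization and 16.4% under poly-A scaling, which raised the median of all genes from -0.06 to 0.27. Poly-A spikes averaged 8.91 to 9.91 on the log2 scale in replicates 1 and 2 but 5.90 and 6.30 in both arrays of replicate 3. Without untreated replicate 3, 6 members were higher and 13 lower, and with replicates 1 and 2 alone 3 were higher and 9 lower. Scaling to the hybridisation spikes ended the calls of DPY30, KDM1A, KDM5B, EHMT1, SETDB1, KDM3B, KDM4B, PHF8, EED, SUZ12, SETD2, PRMT5 and CARM1. Not all of these changes were smaller there: SETD2 was at 0.62 (adjusted p = 0.051), PHF8 at 0.45 and SUZ12 at 0.42, and KDM4B was at -0.61 (adjusted p = 0.0586). Called in the same direction under all 20 alternatives were 6 members: KMT2A and RBBP5 higher, and MEN1, KDM1B, KDM2B and PRMT6 lower. RBBP5, MEN1, KDM2B and PRMT6 had 1 probe set each, so the other probe set rules could not change their values.

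**Figure D1:**
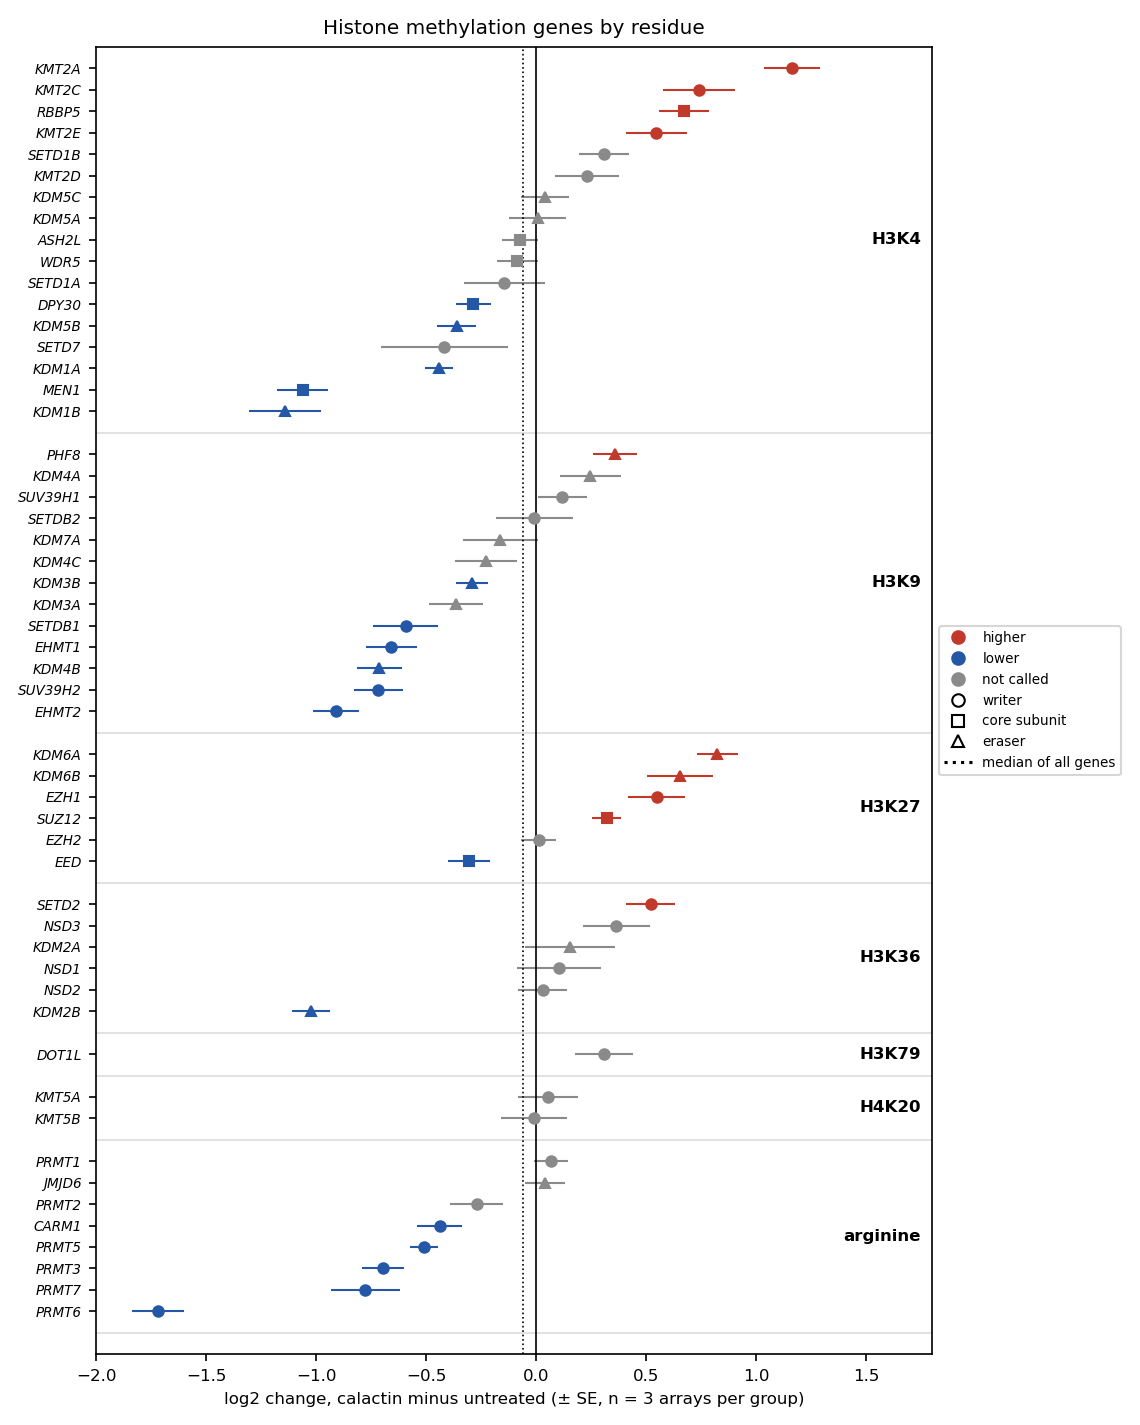
Log2 change (calactin minus untreated, ± SE, 3 arrays per group) of each of the 53 measured genes, by residue, with the symbol for its role and the colour for its call. KMT2A lies farthest right at 1.16 and PRMT6 farthest left at -1.72, and no arginine gene was called higher at the deposited scaling.

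Of 7 genes listed as H3K4 writers, KMT2E included by family, 3 rose, 0 fell and 4 were not called, where 9.1% of genes above the median signal were higher. They had a median of 0.31 on the log2 scale that stayed positive under all 5 scalings. KMT2A, which methylates H3K4 at developmental promoters, had signals of 333, 357 and 320 on untreated arrays and 819, 875 and 645 on calactin arrays. Every calactin array was thus well above every untreated one. KMT2A rose 2.24-fold, by 1.16 ± 0.13 (log2, SE, n = 3 each; limma adjusted p = 3.66e-04). KMT2C, an enhancer monomethyltransferase, rose by 0.74 ± 0.16, and KMT2E, an MLL family protein with no known lysine methyltransferase activity, by 0.55 ± 0.14. KMT2D, the close relative of KMT2C, was at 0.23 ± 0.14 and was not called, although 2 further KMT2D probe sets, at 0.48 and 0.47, were called higher. SETD1B, which trimethylates promoter H3K4, was at 0.31 ± 0.11 (adjusted p = 0.0938), its 3 calactin arrays above the untreated ones; with the replicate block the adjusted p was 0.0184, and without untreated replicate 2 it was 0.0382. SETD1A, its counterpart, and SETD7, a monomethyltransferase of H3K4 and other proteins, were near background with mean signals of 27.8 and 46.3 in untreated cells, and their values of -0.15 ± 0.18 and -0.42 ± 0.29 were not called. The KMT2C call needed calactin replicates 2 and 3 and untreated replicate 3 (adjusted p = 0.0532 to 0.0638 with one of them left out). That of KMT2E needed calactin replicates 2 and 3 and untreated replicates 1 and 3 (0.0828 to 0.0904).

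Core subunits of the H3K4 complexes split. MEN1 encodes menin, which tethers KMT2A to chromatin. Its signals were 713, 561 and 677 untreated and 294, 306 and 305 with calactin, so that MEN1 fell by 1.06 ± 0.11 on the log2 scale, or 2.09-fold (limma adjusted p = 3.37e-04), while KMT2A rose. RBBP5, a WD-repeat subunit common to all COMPASS complexes, went the other way, from 254 ± 7.57 (mean ± SD) to 416 ± 41.0, a rise of 0.67 ± 0.11. DPY30, the smallest shared subunit, fell by 0.29 ± 0.08; it was positive at 0.24 under poly-A scaling, and its call needed calactin replicates 1 and 2 and untreated replicates 2 and 3 (adjusted p = 0.0753 to 0.12 with one left out). WDR5 and ASH2L, the other shared subunits, were not called, at -0.09 ± 0.09 and -0.07 ± 0.08. Their 95% intervals ran from -0.30 to 0.13 and from -0.26 to 0.11.

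Of 5 erasers of H3K4 methylation, 3 were lower and 0 higher, where 29.3% of genes above the median signal were lower, and 1 of the 5 was lower with scaling to the hybridisation spikes. Their median was -0.36, and 0.16 under poly-A scaling, where the median of all genes was 0.27. KDM1B, or LSD2, a flavin-dependent demethylase active in gene bodies, had signals of 596, 535 and 638 untreated and 299, 197 and 291 with calactin. It fell by 1.14 ± 0.16, or 2.21-fold (adjusted p = 0.00127), and its second probe set was also called lower, at -0.92. KDM1A, or LSD1, the catalytic subunit of the CoREST complex, had signals of 2644, 2533 and 2706 untreated and 1954, 1908 and 1926 with calactin. The arrays of each group lay close together and apart from the other group. KDM1A fell by 0.44 ± 0.06 (adjusted p = 0.00148), a value that was 0.09 under poly-A scaling. KDM5B, a JmjC demethylase of trimethylated H3K4, fell by 0.36 ± 0.09 and was 0.16 under poly-A scaling; 3 of its 5 probe sets were called lower, and the call needed calactin replicates 2 and 3 and untreated replicates 1 and 3 (adjusted p = 0.056 to 0.0766 with one left out). Its relatives KDM5A and KDM5C were not called, at 0.01 ± 0.13 and 0.04 ± 0.11.

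Of 6 H3K9 writers, 4 were lower and 0 higher, where 29.3% of genes above the median signal were lower. Their median of -0.63 was -0.43 under quantile normalization and -0.13 under poly-A scaling, and -0.38 when probe sets were averaged within a gene. Lower calls came to 2 of 6 with the hybridisation spikes or averaged probe sets, and to 0 under poly-A scaling, where 2 were called higher. EHMT2 and EHMT1 encode G9a and GLP, partners that place mono- and dimethyl marks. EHMT2 had signals of 1035, 882 and 1017 untreated and 473, 559 and 505 with calactin. It fell by 0.91 ± 0.10, or 1.88-fold (adjusted p = 4.49e-04). EHMT1 had signals of 505, 429 and 504 untreated and 304, 316 and 273 with calactin, and fell by 0.66 ± 0.11. In both genes the highest calactin array was below the lowest untreated one, while the 2 other probe sets of each were dim and not called.

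SUV39H2 and SUV39H1 trimethylate H3K9 in constitutive heterochromatin. SUV39H2 signals were 815, 942 and 1030 untreated and 512, 587 and 571 with calactin, without overlap, and SUV39H2 fell by 0.72 ± 0.11 (adjusted p = 0.00191). The other SUV39H2 probe set was dim, and preferring it ended the call. It counted as the one of unshared sequence by the suffix of its name alone, here and below, and no sequence was checked. SUV39H1, in contrast, was at 0.12 ± 0.11 with overlapping arrays. SETDB1, the writer recruited by TRIM28 to silence repeats, fell by 0.59 ± 0.15; its second probe set was at -0.08, and its call needed every calactin replicate and untreated replicates 1 and 3 (adjusted p = 0.054 to 0.0908 with one left out). SETDB2 was at -0.01 ± 0.17, and none of its 6 probe sets was called.

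Of 7 H3K9 erasers, 1 was higher and 2 were lower, where 9.1% of genes above the median signal were higher and 29.3% lower. Nothing is read from these counts. The median of the erasers was -0.23, and 0.27 under poly-A scaling, level with all genes there. KDM4B, a demethylase of trimethylated H3K9 known as a target of hypoxia factors, had signals of 1184, 1441 and 1233 untreated and 841, 755 and 734 with calactin. The groups did not overlap, and KDM4B fell by 0.71 ± 0.10 (adjusted p = 0.00128), with 3 of its 8 probe sets called lower and 0 higher; averaging the 8 gave -0.34 and ended the call. KDM3B, a demethylase of mono- and dimethylated H3K9, fell by 0.29 ± 0.07, with both probe sets called; it was at 0.23 under poly-A scaling, and its call needed every calactin replicate and untreated replicate 3 (adjusted p = 0.0562 to 0.0721 with one left out). KDM3A, also a hypoxia target, was at -0.36 ± 0.12 and was not called (adjusted p = 0.0719), though its calactin arrays lay below the untreated ones. KDM3A was called lower when only genes above the median signal were tested (adjusted p = 0.0309) and with robust eBayes (0.0463), and was at 0.16 under poly-A scaling. PHF8, which acts on dimethylated H3K9 and on H4K20, rose by 0.36 ± 0.10; this call did not survive leaving out any single array (adjusted p = 0.061 to 0.121). KDM4A (0.25 ± 0.14), KDM4C (-0.23 ± 0.14) and KDM7A (-0.16 ± 0.17) were not called.

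**Figure D2:**
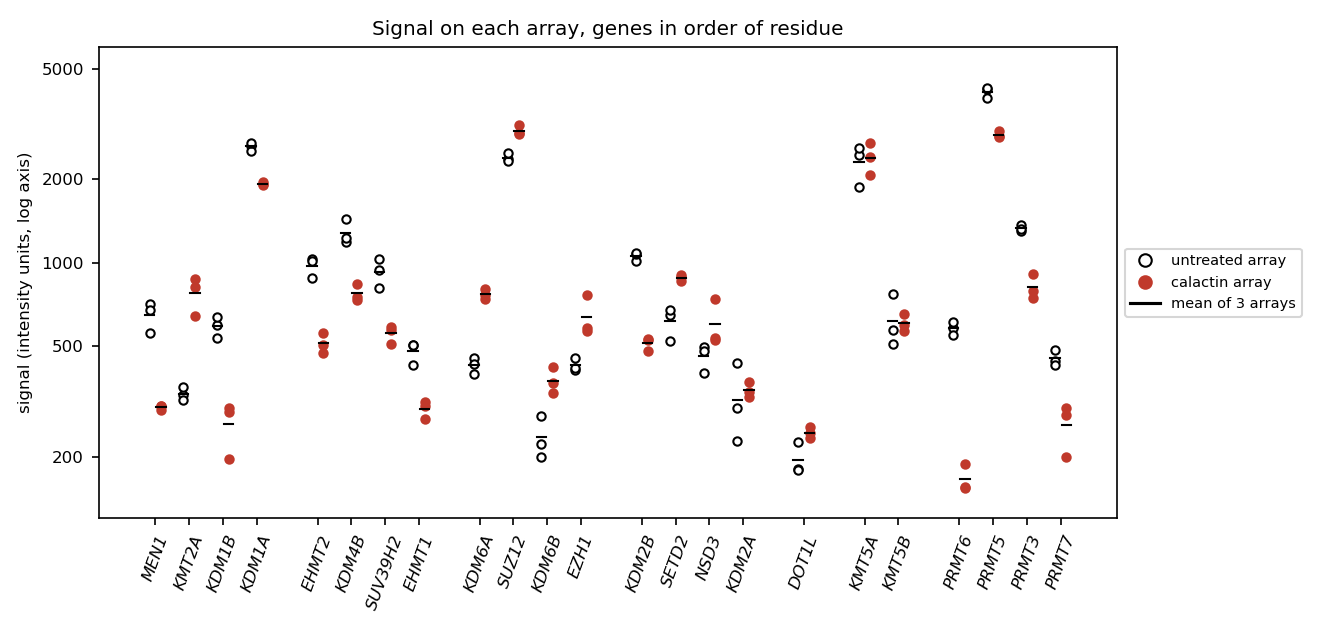
Signal on each array (intensity units, log axis) for up to 4 genes with the smallest p in each residue group, open circles untreated, filled circles calactin, and a bar at the mean of 3 arrays. The groups stand apart for MEN1, KMT2A and PRMT6 and overlap for KDM2A, KMT5A and KMT5B; heights of different genes are not comparable, since probe sets differ in brightness.

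Both H3K27 erasers were called higher, where 9.1% of genes above the median signal were. KDM6A, or UTX, an X-linked demethylase that sits in the KMT2C and KMT2D complexes, had signals of 399, 453 and 432 untreated and 740, 805 and 764 with calactin. It rose 1.77-fold, by 0.82 ± 0.09 (adjusted p = 4.41e-04). KDM6B, or JMJD3, an inducible demethylase, had signals of 282, 200 and 223 untreated and 420, 339 and 369 with calactin, a rise of 0.65 ± 0.15 (adjusted p = 0.0134). In each gene all calactin arrays exceeded all untreated ones. Of the KDM6A probe sets 3 of 4 were called higher and of the KDM6B ones 4 of 5, with 0 lower in either. Preferring the probe set of unshared sequence, which was dim, put KDM6A at 0.39 and ended its call. The KDM6B call needed calactin replicate 1 and untreated replicate 3 (adjusted p = 0.06 and 0.0611 with one left out).

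PRC2, the H3K27 writer, changed in its parts. EZH1, the catalytic subunit of resting cells, had signals of 412, 418 and 453 untreated and 580, 766 and 567 with calactin, a rise of 0.55 ± 0.13 (adjusted p = 0.0159, and 0.055 without untreated replicate 1). EZH2, the catalytic subunit of dividing cells, was at 0.01 ± 0.08, with a 95% interval from -0.17 to 0.19 and overlapping arrays. That interval holds at the deposited scaling. Under poly-A scaling EZH2 was called higher at 0.54 (limma adjusted p = 0.00988), where the median of all genes was 0.27. SUZ12, the scaffold, had signals of 2376, 2329 and 2484 untreated and 2914, 3137 and 2942 with calactin. The spread within groups was small, and SUZ12 rose by 0.32 ± 0.07 (adjusted p = 0.00846); averaging it with its 2 dim probe sets gave 0.06 and ended the call. EED, which reads trimethylated H3K27, fell by 0.31 ± 0.09 at an adjusted p of 0.0491. That call ended when any single array was left out (adjusted p = 0.0674 to 0.162), and the EED value was 0.22 under poly-A scaling and 0.68 for its other, dim probe set.

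Among H3K36 genes, SETD2 and KDM2B stood out in opposite directions. SETD2, which trimethylates H3K36 behind RNA polymerase II, had signals of 525, 650 and 674 untreated and 857, 893 and 906 with calactin. SETD2 rose by 0.52 ± 0.11 (adjusted p = 0.00933), and all 3 of its probe sets were called higher. KDM2B, a CXXC zinc finger demethylase that brings a PRC1 complex to CpG islands, had signals of 1018, 1077 and 1087 untreated and 481, 527 and 531 with calactin. Its groups lay far apart, and KDM2B fell by 1.03 ± 0.09, or 2.04-fold (adjusted p = 1.32e-04). KDM2A, its relative, had signals of 227, 435 and 300 untreated and 328, 341 and 372 with calactin, which overlapped (0.15 ± 0.20). NSD1 and NSD2, which dimethylate H3K36, were not called, at 0.10 ± 0.19 and 0.03 ± 0.11. NSD3, the third of that family, had signals of 497, 482 and 400 untreated and 534, 742 and 529 with calactin. Its value of 0.36 ± 0.15 was not called (adjusted p = 0.139, and 0.0408 with the replicate block).

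The remaining lysine writers were not called at the deposited scaling. DOT1L, the methyltransferase of H3K79 to which several MLL fusion partners bind, had signals of 226, 180 and 178 untreated and 244, 257 and 233 with calactin, close together but without overlap (0.31 ± 0.13, adjusted p = 0.151). DOT1L was called higher under quantile normalization (0.50, adjusted p = 0.0322) and poly-A scaling (0.77, adjusted p = 0.00486). KMT5A, the monomethyltransferase of H4K20 that is destroyed in S phase, had signals of 1884, 2445 and 2603 untreated and 2072, 2406 and 2698 with calactin. KMT5B, which adds further methyl groups to H4K20, had signals of 510, 775 and 571 untreated and 567, 598 and 651 with calactin. Both overlapped, at 0.05 ± 0.14 and -0.01 ± 0.15, but a second KMT5B probe set, from 169 untreated to 426 with calactin, was called higher at 1.37 ± 0.30.

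Of 7 arginine methyltransferases, 5 were lower and 0 higher, where 29.3% of genes above the median signal were lower; 3 of the 7 were lower with the hybridisation spikes and 1 under poly-A scaling. They had a median of -0.51, which was 0.02 under poly-A scaling, below the 0.27 of all genes there. PRMT6, the main writer of asymmetric dimethylarginine at H3R2, a mark that opposes H3K4 trimethylation, had signals of 583, 550 and 612 untreated and 154, 188 and 155 with calactin. It fell by 1.72 ± 0.12, or 3.30-fold (adjusted p = 7.4e-05), the largest change of the 53 members. PRMT5, the main writer of symmetric dimethylarginine, had signals of 4219, 3931 and 4263 untreated and 2982, 2865 and 2842 with calactin. It fell by 0.51 ± 0.06 (adjusted p = 6.61e-04), and all 3 of its probe sets were called lower, but it was at 0.02 under poly-A scaling. PRMT3, a cytosolic enzyme that methylates a small-subunit ribosomal protein, had signals of 1300, 1367 and 1324 untreated and 747, 794 and 911 with calactin. The groups were well separated, and PRMT3 fell by 0.70 ± 0.09 (adjusted p = 9.5e-04), a call that PRMT3, PRMT5 and PRMT7 all lost under poly-A scaling.

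PRMT7, which makes monomethylarginine, had signals of 441, 487 and 429 untreated and 200, 300 and 282 with calactin. The groups did not overlap, and PRMT7 fell by 0.78 ± 0.16 (adjusted p = 0.00703). CARM1, the coactivator methyltransferase PRMT4, fell by 0.44 ± 0.10; it was at 0.08 under poly-A scaling, and its call needed calactin replicates 2 and 3 (adjusted p = 0.0636 and 0.0609 with one left out). PRMT1, which makes most asymmetric dimethylarginine in cells, was not called, with a mean of 4714 ± 358 (SD) untreated and 4932 ± 312 with calactin. PRMT2, a relative with an SH3 domain, was at -0.27 ± 0.12 (adjusted p = 0.169, and 0.0426 with the replicate block), and 2 of its 7 probe sets were called lower, at -0.64 and -1.01. JMJD6, a JmjC protein reported to act on methylarginine and to hydroxylate lysine, was at 0.04 ± 0.09.

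**Figure D3:**
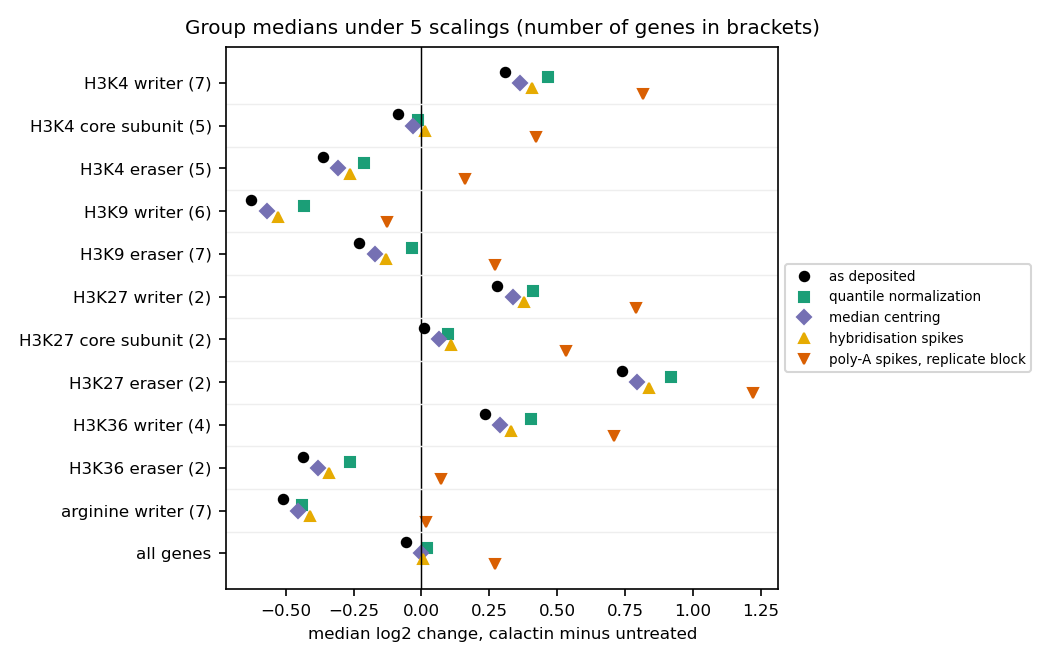
Median log2 change (calactin minus untreated) of each group of genes with 2 or more members, other than H4K20, under 5 scalings of the arrays, with the median of all genes in the last row. H3K9 writers lie left of 0 and H3K4 writers and H3K27 erasers right of 0 under each scaling, while H3K4 erasers and arginine writers cross 0 with the poly-A spikes.

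Probe sets of 1 gene did not always agree. The 53 members had 165 probe sets, of which 29 were called higher and 29 lower, where 4.53% of all 41091 probe sets with 1 symbol were higher and 12.5% lower. Of 29 members with at least 2 probe sets above the median signal, 21 had the same sign in each of those. Calls in both directions were seen in 2 members, KMT2A and NSD3. KMT2A had 11 probe sets, 6 called higher, up to 1.30, and 1 called lower, at -0.78, and the mean of all 11 gave 0.45. NSD3 had 7, with 1 higher at 1.10 and 1 lower at -0.53. With the latter, unshared by the suffix of its name, in its place NSD3 would have been called lower. KDM6A, KDM6B, SETD2 and PRMT5 showed no such split.

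**Figure D4:**
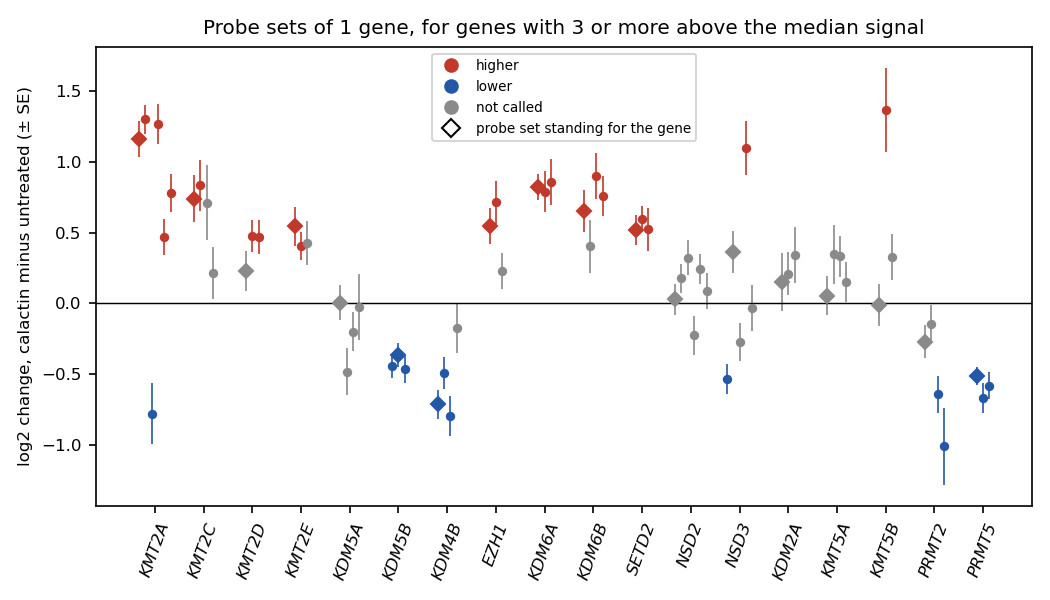
Log2 change (± SE) of every probe set above the median signal, for the 18 members with 3 or more of them, with colour for the call and a diamond for the probe set that stood for the gene. Those of SETD2, KDM6A and PRMT5 lie together, whereas those of KMT2A and NSD3 fall on both sides of 0.

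Related genes were then compared within each array, where a single scaling factor for the whole array has almost no part because it acts on both genes alike. Scaling that depends on brightness, as quantile normalization does, can move the genes of a pair unequally. In 20 pairs of one family, the log2 signals were subtracted on each array, and the difference was compared between calactin and untreated arrays. Over all single genes, the groups did not overlap for 34.7%, and no such share was computed for other pairs of genes. Groups did not overlap in 14 of the 20 pairs, and nothing is read from that count. Each of these 14 reached a two-sided exact permutation p of 0.1, the smallest that 20 orders of 3 against 3 arrays can give, and an adjusted p of 0.143, so none could pass a threshold of 0.05.

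The largest shift among the 20 pairs was that of PRMT1 over PRMT6, which grew by 1.79 ± 0.12 (log2, SE). KDM2A gained 1.18 ± 0.24 on KDM2B, KDM4A gained 0.96 ± 0.09 on KDM4B, KMT2A gained 0.93 ± 0.13 on KMT2D, and SUV39H1 gained 0.84 ± 0.11 on SUV39H2. EZH1 gained 0.54 ± 0.16 on EZH2, the other catalytic subunit of PRC2. KDM1A gained 0.70 ± 0.18 on KDM1B, although both fell. EHMT1 gained 0.25 ± 0.07 on EHMT2, a gap that was -0.07 when probe sets were averaged within each gene. Among H3K4 genes, KMT2C gained 0.51 ± 0.15 on KMT2D, KDM5B shifted by -0.40 ± 0.04 against KDM5C, and SETD1A, which was dim, by -0.45 ± 0.13 against SETD1B. Among H3K9 genes, SETDB1 shifted by -0.59 ± 0.26 against SETDB2 and KDM7A by -0.52 ± 0.18 against PHF8, and PRMT1 gained 0.50 ± 0.05 on CARM1. These 6 pairs did not overlap either, but SETDB1 and SETDB2 only just so, with their difference in replicate 2 at -0.308 with calactin and -0.307 untreated. KDM4A and KDM4C (0.47 ± 0.24), KDM5A and KDM5B (0.37 ± 0.19), NSD1 and NSD3 (-0.26 ± 0.31), KDM3A and KDM3B (-0.07 ± 0.15), KDM6A and KDM6B (0.17 ± 0.22) and NSD1 and NSD2 (0.07 ± 0.31) overlapped.

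**Figure D5:**
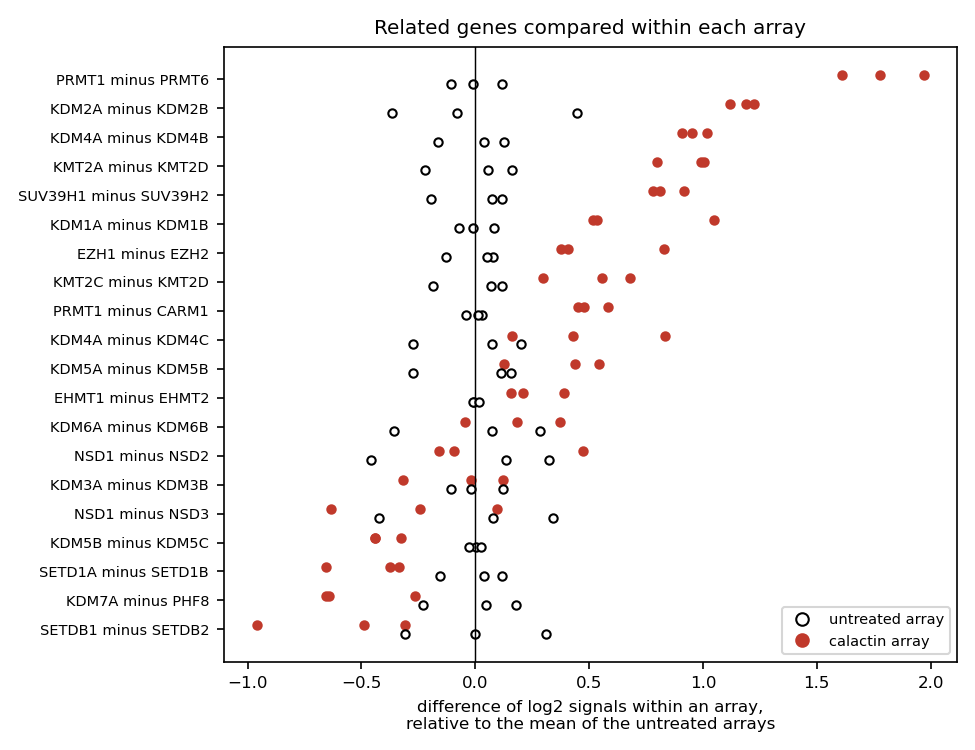
Difference of log2 signals between the 2 genes of a pair on each array, relative to the mean of the untreated arrays, for 20 pairs, with open circles for untreated and filled circles for calactin arrays. The calactin points of PRMT1 minus PRMT6 lie farthest right, and those of KDM3A minus KDM3B mix with the untreated ones.

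Other genes of the same marks were read from 6 lists. Of 96 measured partner genes, 94 of them above the median signal, 11 were higher and 33 lower, and 18 were higher and 38 lower with the replicate block. The counts of 11 and 33 are near the background of genes above the median signal, 9.1% higher and 29.3% lower. With the block, 1402 of all 19775 genes were higher and 3992 lower, and no share above the median signal was computed. Nothing is read from the counts of the lists. Each list is described by up to 3 genes with its smallest p, so the genes named are its most changed ones. Among 14 partners of the H3K4 complexes, 4 rose and 3 fell. HCFC2, a relative of the host cell factor subunit, rose by 1.24 ± 0.14, WDR82, which brings the SETD1 enzymes to RNA polymerase II, by 0.53 ± 0.07, and NCOA6, a subunit of the KMT2C and KMT2D complexes, by 0.65 ± 0.10. Among 22 other SET and JmjC genes, 2 rose and 9 fell. RIOX2 and RIOX1, ribosomal oxygenases of the JmjC family, fell by 1.29 ± 0.13 and 1.01 ± 0.12, while PRDM10, a PR domain factor, rose by 1.19 ± 0.14. Readers and partners of H3K9 methylation had 4 of 12 lower, close to that 29.3%, and 0 higher. MPHOSPH8, of the HUSH silencing complex, fell by 0.88 ± 0.13, CBX3, or HP1 gamma, by 0.25 ± 0.06, and CDYL, a chromodomain corepressor, by 0.50 ± 0.13. MPHOSPH8 was not called under poly-A scaling, at -0.39. CBX3 was at 0.28 under poly-A scaling, and its lower call needed calactin replicate 3 (adjusted p = 0.054 without it). With its probe set of unshared sequence CBX3 was at 0.65 and was called higher (limma adjusted p = 0.0203). CDYL was at 0.01 under poly-A scaling and its call needed calactin replicates 1 and 3 and untreated replicates 2 and 3 (0.0796 to 0.11 with one left out).

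Polycomb partners had 3 of 23 higher and 6 lower. PCGF6 and CBX2, subunits of PRC1 complexes, fell by 1.31 ± 0.12 and 1.22 ± 0.18, and ASXL2, a partner of the BAP1 deubiquitinase, rose by 0.70 ± 0.10. CBX2 was not called with replicates 1 and 2 alone (limma adjusted p = 0.0534). Of 15 partners of H3K36 and H3K79 methylation, 1 rose and 6 fell. The DNA methyltransferases DNMT3B and DNMT3A, which bind methylated H3K36, fell by 1.38 ± 0.10 and 1.15 ± 0.12, and MSH6, a mismatch repair protein that also binds it, by 0.85 ± 0.09. MSH6 was not called under poly-A scaling, at -0.32. In the list for arginine methylation and the methyl donor, 5 of 10 fell and 1 rose. MAT2A, which makes S-adenosylmethionine, had signals of 3305, 3919 and 3524 untreated and 1011, 1417 and 1201 with calactin, far apart, and MAT2A fell by 1.56 ± 0.12 (adjusted p = 1.09e-04). RIOK1, an adaptor of PRMT5, fell by 0.87 ± 0.12, and was not called under poly-A scaling, at -0.34. Of the other PRMT5 partners, named after their values were seen, WDR77 fell by 0.54 ± 0.11 and CLNS1A fell by 0.52 ± 0.12, whereas COPRS was at 0.28 ± 0.13 and was not called. BTG1, a cofactor of PRMT1, rose by 0.93 ± 0.10 but was at -0.21 with its probe set of unshared sequence.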

How the data were processed

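Gene expression was measured on 6 Affymetrix arrays of K562 RNA, 3 calactin and 3 untreated. The authors deposited a linear intensity for each probe set on each array; per the labels' protocols, biotinylated cRNA was made from total RNA extracted with Trizol. How probes were summarised and arrays scaled is not given in the sources used here. Of 54675 probe sets, 41091 carried 1 symbol in the platform annotation, 62 were controls, and those with several symbols or none were left unnamed. The array number limits the precision.

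Intensities became log2(intensity + 16), with no further scaling, and limma 3.58.1 in R 4.3.3 (eBayes with a trend) compared the groups, two-sided, with Benjamini-Hochberg adjustment over 19775 genes and a threshold of 0.05. The fit was tested on simulated data. Plots used matplotlib 3.10.9. All members are named, and array values are given for up to 4 members with the smallest p in each residue group. Partner genes named are up to 3 with the smallest p in each list, beside the further PRMT5 partners. MAT2A array values and further probe sets were added after their values were seen. Members, lists, pairs and alternatives were chosen with earlier results of these data known.

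Replicate numbers come from the titles, which state no pairing of arrays. Over 9887 genes above the median signal, deviations of the same number from the group means correlated at 0.544, 0.409 and 0.345. Those of different numbers correlated at -0.409 to -0.00837. The main calls and the tests of gene pairs did not use this pairing. With the replicate block 12 members were higher and 19 lower. The replicate block was an alternative, beside quantile normalization, median centring, scaling to hybridisation or poly-A spikes, pseudocounts of 1 and 64, a filter on dim genes, other probe set rules, other eBayes settings, replicates 1 and 2 alone, and each array left out. Probe sets were taken as of shared sequence by the suffix of their names (_s_at, _x_at or _a_at), without their sequences. Promoter windows came from RefSeq, GRCh38.p14.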

Additional observations from a re-analysis of the deposited data

How the results depend on the processing

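Over all genes, 975 were higher and 3264 lower. Counts of all genes moved by over 1.5 times under quantile normalization (1661 higher), hybridisation spike scaling (590 and 1477), poly-A spike scaling with the replicate block (5047 and 990) and with replicates 1 and 2 alone (332 and 1403). For the members (10 and 18) such counts were 8 lower under hybridisation spike scaling, 27 and 4 under poly-A scaling, and 3 and 9 with replicates 1 and 2 alone. Partner genes (11 and 33) gave 19 and 21 under quantile normalization, 12 lower under hybridisation spike scaling, 45 and 7 under poly-A scaling, 18 higher with the replicate block, and 6 and 10 with replicates 1 and 2 alone. Leaving out 1 array gave 644 to 1015 higher and 2390 to 3030 lower genes, 6 to 10 and 12 to 16 members, and 9 to 13 and 20 to 28 partner genes. The causes were not tested. Settings that leave out arrays also rest on fewer arrays.

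Of the 28 called members, 22 lost their call or changed sign in at least 1 alternative, 20 of them in one other than poly-A scaling. Under poly-A scaling the sign changed for DPY30 (0.24), KDM1A (0.086), KDM5B (0.16), KDM3B (0.23), EED (0.22), PRMT5 (0.018) and CARM1 (0.083), and, among genes not called, SETD1A (0.10), SETD7 (0.042), WDR5 (0.42), ASH2L (0.45), SETDB2 (0.43), KDM3A (0.16), KDM4C (0.27), KDM7A (0.31), KMT5B (0.50) and PRMT2 (0.25). CBX3 (0.28) and CDYL (0.015) did so too. Of these, WDR5, SETDB2 and KMT5B were called higher there. Poly-A scaling also called KMT2D, SETD1B, KDM5A, KDM5C, SUV39H1, KDM4A, EZH2, NSD2, NSD3, KDM2A, DOT1L, KMT5A, PRMT1 and JMJD6 higher, from 0.49 to 0.87. Other scalings turned only genes that were not called: WDR5 (0.013), ASH2L (0.026), SETDB2 (0.079) and KMT5B (0.087) with the hybridisation spikes, SETDB2 (0.048) and KMT5B (0.046) under median centring, and WDR5 (0.062), SETDB2 (0.18), KDM7A (0.032) and KMT5B (0.14) under quantile normalization. Quantile normalization also called SETD1B (0.47), NSD3 (0.53) and DOT1L (0.50) higher. It ended the lower calls of DPY30, KDM5B, SETDB1, KDM3B, EED and CARM1, and median centring ended those of DPY30, KDM3B and EED. ASH2L was at 0.0022 with replicates 1 and 2 alone.

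With probe sets averaged within a gene, EED was at 0.19, KDM5A at -0.21, KDM5C at -0.035, SETDB2 at 0.026, KDM4C at 0.039, KDM7A at 0.094, NSD1 at -0.18, KMT5B at 0.56 and JMJD6 at -0.079, and the gaps EHMT1 minus EHMT2, KDM3A minus KDM3B and NSD1 minus NSD2 at -0.073, 0.16 and -0.28. With probe sets of unshared sequence first, EED was at 0.68, KDM5A at -0.48, NSD3 at -0.53, BTG1 at -0.21 and CBX3 at 0.65, and KDM5A minus KDM5B, KDM6A minus KDM6B and NSD1 minus NSD3 at -0.35, -0.27 and 0.64. Among the values named, leaving out 1 array turned the sign of these: KDM5A ran from -0.087 to 0.082, KDM5C from -0.025 to 0.13, SETDB2 from -0.14 to 0.10, EZH2 from -0.054 to 0.061, NSD1 from -0.072 to 0.20, NSD2 from -0.055 to 0.13, KDM2A from -0.060 to 0.39, KMT5A from -0.085 to 0.15, KMT5B from -0.14 to 0.16, JMJD6 from -0.012 to 0.10, NSD1 minus NSD2 from -0.16 to 0.24, KDM3A minus KDM3B from -0.17 to 0.053 and KDM6A minus KDM6B from -0.0088 to 0.31. The replicate block changed no other member's call than those of SETD1B, NSD3 and PRMT2, given above. With 3 arrays a group and poly-A spikes that differed between replicates, the direction of the smaller falls rests on the scaling.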
